A study of Mus musculus with 23 samples.

Results

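Brown adipocytes keep triglyceride in many small lipid droplets and break it down to fatty acids when norepinephrine is released in the cold. These fatty acids activate the uncoupling protein UCP1 and fuel the mitochondria that make heat. The 10 genes described here encode that machinery: the lipases Pnpla2, Lipe and Mgll, the coactivator Abhd5 and the inhibitor G0s2 of the first lipase, the droplet coat proteins Plin1, Plin2 and Plin5, and the droplet fusion proteins Cidea and Cidec. They were picked by symbol from the 14651 genes in the table of normalized counts, and all 10 were present.

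RNA was sequenced from whole brown adipose tissue (BAT) of 23 male C57BL/6 mice aged 8 to 12 weeks, 1 library per mouse. All of them carried Mcu fl/fl, in which the gene of the pore subunit of the mitochondrial calcium uniporter is flanked by loxP sites. The BAT-Mcu-KO mice (the knockouts) also carried Ucp1-Cre, a transgene driven by the promoter of Ucp1, which the authors call highly specific to BAT. Its activity in the separate cell types of the tissue is not given in the sources used here. The groups were control mice at room temperature (RT, n = 6), control mice at 4°C (n = 5), BAT-Mcu-KO mice at RT (n = 6) and BAT-Mcu-KO mice at 4°C (n = 6). Mice were held at RT or 4°C for 6 h, those at 4°C with 1 mouse to a cage and no bedding. The labels state that mice at 4°C had no food unless otherwise given, and the feeding of the RT mice is not given in the sources used here. Cold therefore cannot be told apart from loss of food, single housing or lack of bedding in what follows.

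Depth ran from 7129271 to 21006347 reads per mouse. Mcu itself followed the labels: every BAT-Mcu-KO mouse, at 15.2 to 42.4 normalized counts, lay below every control mouse, at 70.8 to 136. The log2 difference was -1.66 ± 0.22 (SE) at RT and -1.61 ± 0.23 at 4°C, with adjusted p = 0.001 and 0.00367 (limma). The brown adipocyte markers were present in every group. With cold 2 of the 10 rose and 4 fell in controls, and 2 rose and 3 fell in BAT-Mcu-KO mice. The most abundant of them, Ucp1, rose by 1.37 ± 0.10 on the log2 scale in controls and 1.47 ± 0.10 in BAT-Mcu-KO mice, while Ebf2 changed by -0.96 and -0.83. Skeletal muscle RNA varied widely between mice within each group, the summed level of 10 muscle markers running from 14.9 to 60993 normalized counts. Its median was 2325 at RT and 14262 at 4°C in controls, and 22805 and 4235 in BAT-Mcu-KO mice. Of the 10 markers 0 passed the test by cold in either genotype, but a spread this wide leaves large differences possible. With that summed level as a covariate, a fit added after seeing the data, the same numbers of the lipolysis genes passed in all 5 comparisons.

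Lipolysis proceeds in steps. Pnpla2 (adipose triglyceride lipase, ATGL) cuts triglyceride to diglyceride, Lipe (hormone-sensitive lipase) cuts diglyceride, and Mgll releases the last fatty acid from monoglyceride. Abhd5 (CGI-58) is held by perilipin 1 on the droplet until protein kinase A phosphorylates the coat, and then activates ATGL, which G0s2 binds and blocks. Much of this control acts on the proteins, whereas RNA alone was measured here.

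The sequences just upstream of the start of transcription are shown for the genes whose RNA changed most with cold, Abhd5 and Plin2, which rose, and Lipe and G0s2, which fell. Each is the longest run without annotated exon bases in the 250 bases before a RefSeq start (GRCm38.p6), 5′ to 3′ on the strand of the gene. Capitals mark matches to the half-site of the cAMP response element, TGACG, or of nuclear receptors, AGGTCA, on either strand, the second read here as its reverse complement.
Abhd5, chr9:122351366-122351607, + strand: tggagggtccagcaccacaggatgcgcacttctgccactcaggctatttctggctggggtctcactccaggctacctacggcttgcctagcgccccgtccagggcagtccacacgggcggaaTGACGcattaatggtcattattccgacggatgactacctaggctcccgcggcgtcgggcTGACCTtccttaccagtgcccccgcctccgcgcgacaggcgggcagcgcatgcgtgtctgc
Plin2, chr4:86670061-86670309, - strand: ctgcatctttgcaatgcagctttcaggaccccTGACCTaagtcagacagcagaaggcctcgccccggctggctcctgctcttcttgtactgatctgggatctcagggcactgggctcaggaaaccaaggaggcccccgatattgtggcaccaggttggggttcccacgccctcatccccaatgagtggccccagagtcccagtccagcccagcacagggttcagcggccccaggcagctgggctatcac
Lipe, chr7:25390113-25390351, - strand: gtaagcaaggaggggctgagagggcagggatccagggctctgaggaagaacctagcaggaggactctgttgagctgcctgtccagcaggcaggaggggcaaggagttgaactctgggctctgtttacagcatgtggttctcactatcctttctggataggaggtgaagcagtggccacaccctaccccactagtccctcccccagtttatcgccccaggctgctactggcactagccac
G0s2, chr1:193273218-193273337, - strand: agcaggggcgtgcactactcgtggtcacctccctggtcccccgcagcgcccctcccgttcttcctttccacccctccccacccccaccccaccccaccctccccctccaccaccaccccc

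The 2 genes that rose each hold a nuclear receptor half-site, at 69 bases before the start in Abhd5 and 218 in Plin2, and Abhd5 also holds a TGACG at 128 bases. The stretches printed for Lipe and G0s2 hold neither motif. Over the 13 such windows of 9 of the genes, AGGTCA was found in 3 (Abhd5, Plin2 and Plin5, the last of which fell with cold). TGACG was found in 2 (Abhd5 and, outside the printed stretch, G0s2, which also fell). Both motifs are short and common, found in 14.0% and 17.7% of all 32817 windows, and no link to the direction of change was tested. The whole cAMP response element TGACGTCA, which contains TGACG, was in 0 of the 13 windows and in 1.55% of all. The E-box CACGTG was in 2 (Lipe and Mgll), against 6.02% of all. Both of these windows lie wholly within annotated exons, and that of Lipe belongs to another start than the one printed. The C/EBP core TTGCNNAA was in 2 (Cidec and Plin1), against 9.57%. A match is a run of letters and not a measured site of binding.

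Per kilobase of exon, the 10 genes spanned a wide range in control mice at RT. Cidea was by far the most abundant, at 44448 ± 7950 (SD, n = 6) normalized counts per kb, which put it at rank 11 of the 13761 genes with a known length. Pnpla2 (12578 ± 716), G0s2 (9136 ± 2114) and Cidec (7185 ± 1252) followed, and the mice overlapped between each of these and the next. Plin5 (3049 ± 372), Lipe (2451 ± 205) and Plin2 (2384 ± 299) formed a lower set that also overlapped from one to the next. Mgll (1635 ± 127), Plin1 (583 ± 87.0) and Abhd5 (296 ± 17.0) stood apart from their neighbours, with Abhd5 at rank 1166. The 10 genes together took 1.19% ± 0.0846 of the counted reads in control mice at RT and 0.933% ± 0.0878 (n = 5) at 4°C, with 1.16% ± 0.0454 and 0.982% ± 0.0376 in BAT-Mcu-KO mice.

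Cold moved most of these genes, and in opposite directions among the partners of ATGL and among the perilipins. In controls 3 of the 10 rose (Plin2, Abhd5 and Plin1) and 7 fell (Lipe, G0s2, Plin5, Cidec, Mgll, Cidea and Pnpla2). In BAT-Mcu-KO mice 2 rose (Plin2 and Abhd5), 6 fell (Lipe, G0s2, Plin5, Cidec, Mgll and Pnpla2), and Plin1 and Cidea did not pass. The threshold was a limma p under 0.05 after Benjamini-Hochberg adjustment over all 14651 genes. It was passed by 46.0% of all genes in controls (22.3% higher and 23.7% lower) and by 43.3% in the knockouts (21.4% higher, 21.9% lower). All 10 genes are abundant, and among genes with a mean normalized count of at least 50 the shares were 56.9% and 53.2%. The median log2 change of the 10 was -0.33 in controls and -0.22 in BAT-Mcu-KO mice, against -0.02 over all genes in both. In bulk tissue, fewer cells of a type and less RNA per cell cannot be told apart.

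**Figure D1:**
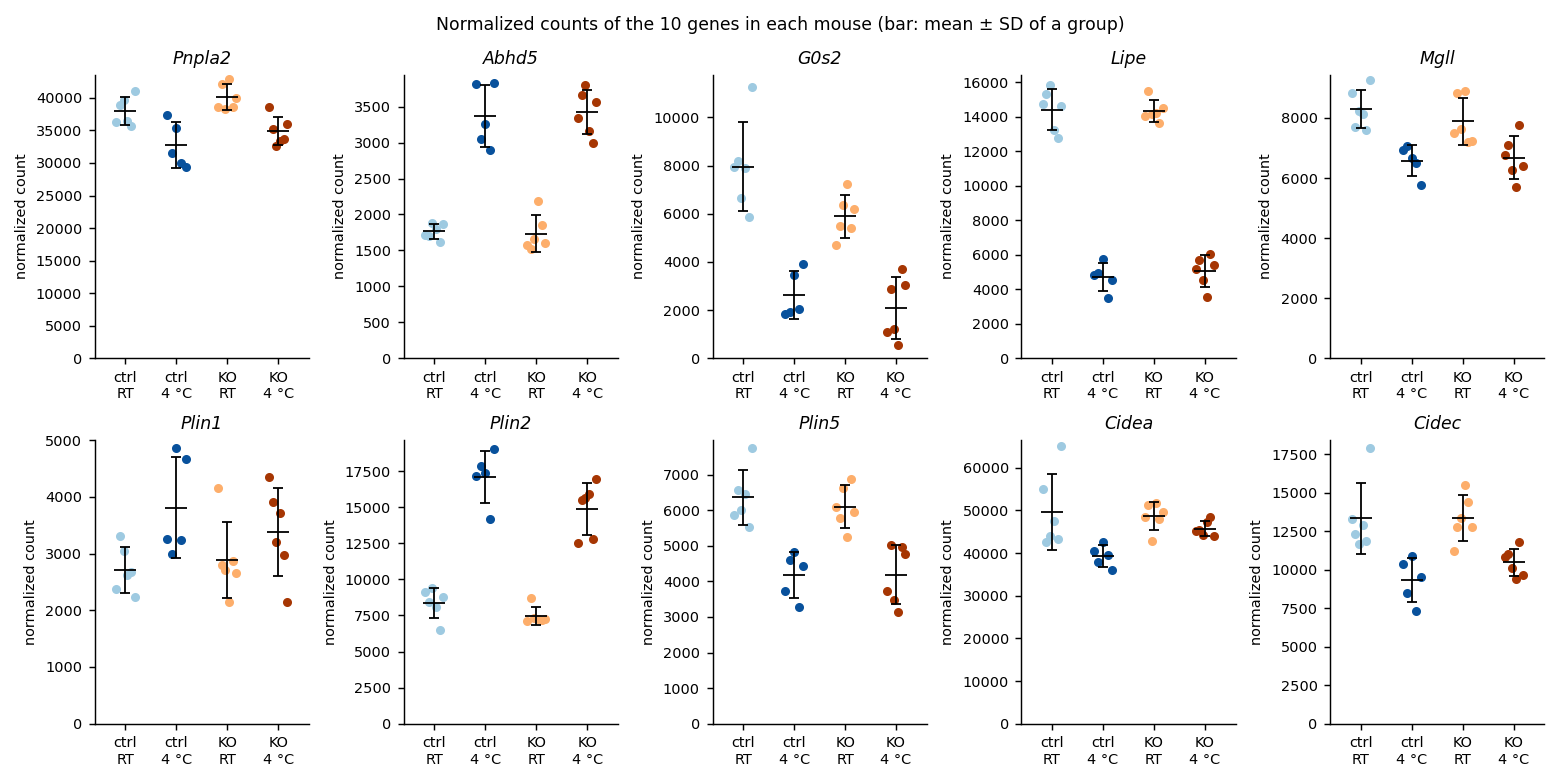
Normalized count (y axis, from 0) of each of the 10 genes in each mouse, by group on the x axis (ctrl, control; KO, BAT-Mcu-KO), with the mean and SD of each group as a bar. Lipe and G0s2 lie lower, and Plin2 and Abhd5 higher, in every mouse at 4°C than in any mouse at RT of the same genotype.

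Among the lipases, Lipe (chr7:25379527-25398710, - strand) fell most. Its normalized count in control mice at RT ran from 12758 through a median of 14696 to 15842, and at 4°C the 5 mice were at 4853, 4961, 5759, 3494 and 4566. The BAT-Mcu-KO mice ran from 13629 through 14198 to 15513 at RT and from 3534 through 5290 to 6051 at 4°C. The RT and 4°C mice were far apart in both genotypes, and the 2 lowest mice of all, control replicate 4 and BAT-Mcu-KO replicate 4, were both at 4°C. The log2 change was -1.62 ± 0.12 (SE) in controls, to 0.324 of the RT level (95% interval 0.275 to 0.383), with adjusted p = 4.28e-11. In BAT-Mcu-KO mice it was -1.52 ± 0.11, to 0.349 (0.297 to 0.409), with adjusted p = 5.56e-11. Lipe went from rank 179 to rank 491 per kb in controls. Its exons overlap those of 4732471J01Rik, and the counting did not use strand, so reads of the overlap cannot be assigned.

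Pnpla2 (chr7:141455198-141460743, + strand), which takes the first step, moved little. It ran from 35656 through 37661 to 41040 in control mice at RT, and the 5 mice at 4°C were at 37391, 31581, 35375, 29934 and 29396. Among BAT-Mcu-KO mice the values ran from 38214 through 39347 to 42886 at RT and from 32642 through 34429 to 38624 at 4°C. The groups overlapped in both genotypes, through replicate 1 at 4°C in each. Its log2 change was -0.22 ± 0.08 in controls and -0.20 ± 0.08 in BAT-Mcu-KO mice (adjusted p = 0.0271 and 0.0355, limma). Neither call was firm. The adjusted p reached 0.0508 to 0.0835 in controls without RT replicate 3 or 6 or 4°C replicate 2, 4 or 5, and 0.0505 to 0.0792 in BAT-Mcu-KO mice without RT replicate 2, 4 or 6 or 4°C replicate 2, 3, 4 or 5. It was 0.113 in controls when the other genotype was left out of the fit. With quantile normalization the changes were only -0.085 and -0.118, with adjusted p = 0.301 and 0.129.

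Mgll (chr6:88724412-88828360, + strand) also fell, by a small amount. The control mice at RT ran from 7614 through 8186 to 9268, all above the 5 at 4°C, which were at 6928, 7052, 6662, 6518 and 5765. In BAT-Mcu-KO mice the ranges, 7207 to 8895 at RT and 5714 to 7774 at 4°C, overlapped through 4°C replicate 5. On the log2 scale the change was -0.33 ± 0.09 in controls and -0.24 ± 0.08 in BAT-Mcu-KO mice (adjusted p = 0.00225 and 0.018). The second call was lost without RT replicate 2 or 4 or 4°C replicate 4, at adjusted p of 0.0517 to 0.0552. Exons of Mgll overlap the gene Gm26588 and those of Abhd5 overlap A730085K08Rik.

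The 2 partners of ATGL went opposite ways. Abhd5 (chr9:122351608-122381524, + strand), its coactivator, ran from 1624 through 1758 to 1876 in control mice at RT, and the 5 mice at 4°C were at 3815, 3044, 3253, 2894 and 3828. Knockout mice had values from 1519 through 1634 to 2192 at RT and from 2997 through 3458 to 3796 at 4°C. No mouse at 4°C came near the RT range in either genotype. Abhd5 rose 1.90-fold in controls (95% interval 1.66 to 2.17, log2 0.92 ± 0.09, adjusted p = 1.64e-08) and 1.98-fold in BAT-Mcu-KO mice (1.74 to 2.25, log2 0.99 ± 0.09, adjusted p = 2.49e-09).

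G0s2 (chr1:193272161-193273217, - strand), the inhibitor of ATGL, ran from 5850 through 7905 to 11244 in control mice at RT, and the 5 mice at 4°C were at 1829, 1915, 3452, 2048 and 3936. The BAT-Mcu-KO mice ran from 4707 through 5845 to 7246 at RT. At 4°C the 6 mice were at 1102, 2893, 1237, 556, 3698 and 3038. The temperatures did not overlap, but G0s2 was the most variable of the 10 in the cold, with a coefficient of variation of 37.3% in controls and 61.3% in BAT-Mcu-KO mice. The log2 change was -1.64 ± 0.33 in controls, to 0.321 of the RT level (95% interval 0.199 to 0.517), with adjusted p = 0.000249. In BAT-Mcu-KO mice it was -1.78 ± 0.32, to 0.292 (0.185 to 0.460), with adjusted p = 6.26e-05.

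**Figure D2:**
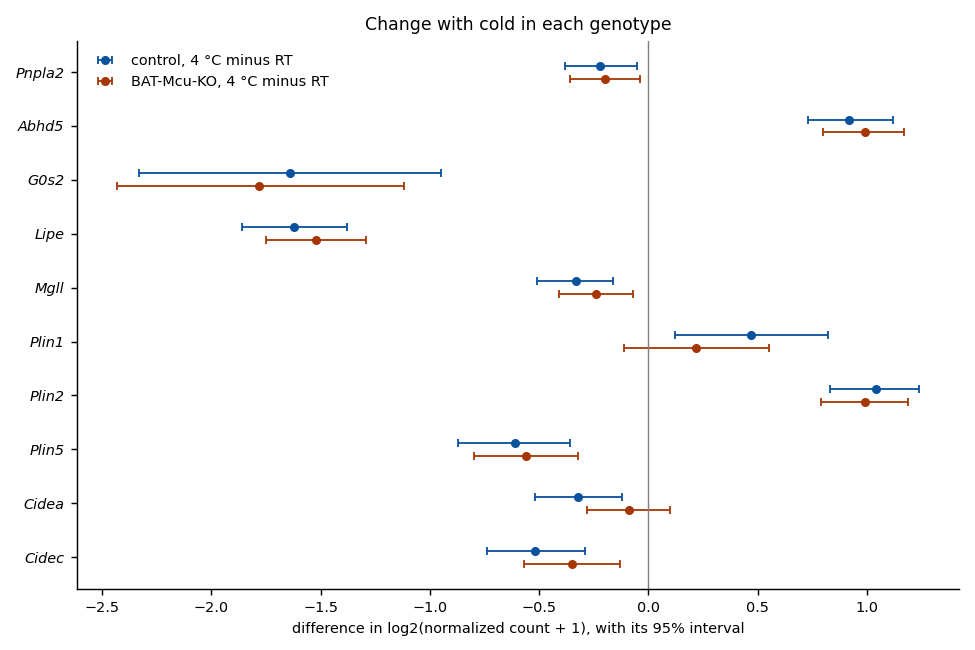
Difference in log2(normalized count + 1) between 4°C and RT (x axis) for each of the 10 genes (y axis), in control mice and BAT-Mcu-KO mice, as points with 95% intervals from limma. Lipe (-1.62 and -1.52) and G0s2 (-1.64 and -1.78) lie far to the left, Plin2 (1.04 and 0.99) and Abhd5 (0.92 and 0.99) to the right, and only the BAT-Mcu-KO intervals of Plin1 and Cidea reach 0.

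The ratio of 2 of these genes within a mouse does not depend on the scaling of its library. It is given on the log2 scale of normalized counts, not per length, so that only its shift between groups can be read. G0s2 to Pnpla2 went from -2.28 ± 0.27 (SD, n = 6) at RT to -3.70 ± 0.58 (n = 5) at 4°C in controls, and in BAT-Mcu-KO mice from -2.78 ± 0.19 to -4.35 ± 1.07 (n = 6 each). The mice at the 2 temperatures did not overlap, with ranges of -2.61 to -1.87 and -4.35 to -2.90 in controls, and -3.04 to -2.57 and -5.91 to -3.18 in knockouts. Abhd5 to Pnpla2 moved the other way, from -4.43 ± 0.06 to -3.28 ± 0.20 in controls, and in the knockouts from -4.54 ± 0.18 to -3.35 ± 0.15, again without overlap. Each mouse at 4°C thus had more Abhd5 and less G0s2 RNA per Pnpla2 RNA than any RT mouse of its genotype.

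**Figure D3:**
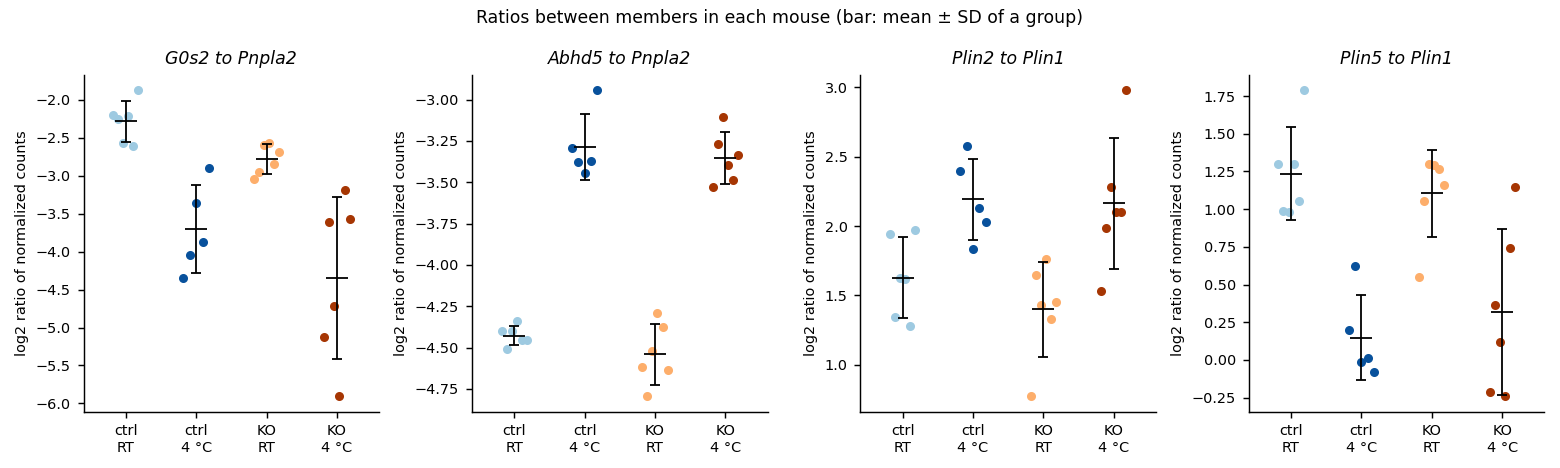
Log2 ratio of the normalized counts of 2 genes in each mouse (y axis), by group (x axis; ctrl, control; KO, BAT-Mcu-KO), with the mean and SD of each group. G0s2 to Pnpla2 lies lower and Abhd5 to Pnpla2 higher at 4°C than at RT in every mouse of both genotypes, while Plin2 to Plin1 overlaps between the temperatures.

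The 3 perilipins did not move together. Plin2 (chr4:86648386-86670060, - strand), found on droplets of most cell types and stabilised by the lipid it coats, rose about as much as Abhd5. It ran from 6471 through 8597 to 9393 in control mice at RT, and the 5 mice at 4°C were at 17155, 17833, 17364, 14186 and 19049. Knockout mice ran from 7092 through 7259 to 8746 at RT and from 12524 through 15543 to 16949 at 4°C. Neither genotype overlapped between temperatures. The rise was 2.05-fold in controls (95% interval 1.77 to 2.37, log2 1.04 ± 0.10, adjusted p = 6.7e-09) and 1.98-fold in BAT-Mcu-KO mice (1.73 to 2.27, log2 0.99 ± 0.10, adjusted p = 7.31e-09).

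Plin5 (chr17:56111601-56117596, - strand), a perilipin of oxidative tissues that ties droplets to mitochondria, fell. The control mice ran from 5540 through 6232 to 7747 at RT, and the 5 at 4°C were at 3740, 4607, 4833, 3271 and 4425. In BAT-Mcu-KO mice the values ran from 5243 through 6023 to 6889 at RT and from 3147 through 4249 to 5031 at 4°C. All mice at 4°C were below all at RT of their genotype, by a narrow gap in BAT-Mcu-KO mice. Plin5 changed by -0.61 ± 0.12 on the log2 scale in controls and -0.56 ± 0.12 in BAT-Mcu-KO mice (adjusted p = 0.000224 and 0.000393), to 0.653 and 0.678 of the RT level.

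Plin1 (chr7:79720218-79732903, - strand), the main coat protein of fat cell droplets and the one that holds Abhd5, was more variable. It ran from 2239 through 2649 to 3316 in control mice at RT, and the 5 at 4°C were at 3263, 2990, 4867, 3243 and 4671. The knockouts ran from 2139 through 2747 to 4154 at RT and from 2144 through 3466 to 4342 at 4°C. The groups overlapped in both genotypes. The log2 change was 0.47 ± 0.17 in controls (adjusted p = 0.0241) and 0.22 ± 0.16 in BAT-Mcu-KO mice (adjusted p = 0.28), and the difference between these changes, -0.25 ± 0.23, did not pass (adjusted p = 0.899). The call in controls was lost without RT replicate 6 or 4°C replicate 3 or 5 (adjusted p of 0.0569 to 0.0853), with 75th percentile scaling (0.0722) and with quantile normalization (0.14). Within mice, Plin5 to Plin1 shifted from 1.23 ± 0.31 to 0.15 ± 0.28 in controls without overlap, and in the knockouts from 1.10 ± 0.29 to 0.32 ± 0.55 with overlap, and Plin2 to Plin1 from 1.63 ± 0.29 to 2.19 ± 0.29 and from 1.40 ± 0.35 to 2.16 ± 0.47, with overlap in both.

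Cidea and Cidec promote the transfer of lipid between droplets and their growth, and Cidea is a classical marker of brown fat. Cidec (chr6:113424634-113435760, - strand) ran from 11675 through 12628 to 17918 in control mice at RT, and the 5 at 4°C were at 10354, 8505, 10871, 7332 and 9527. In BAT-Mcu-KO mice it ran from 11234 through 13097 to 15529 at RT and from 9406 through 10499 to 11789 at 4°C. The controls did not overlap, while in BAT-Mcu-KO mice 4°C replicate 5 lay above RT replicate 1. The log2 change was -0.52 ± 0.11 in controls and -0.35 ± 0.11 in BAT-Mcu-KO mice (adjusted p = 0.000476 and 0.01).

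Cidea ran from 42528 through 45714 to 65072 in control mice at RT, where replicates 1 and 6 were highest, and the 5 at 4°C were at 40506, 38002, 42532, 39544 and 35906. The 6 BAT-Mcu-KO mice of each temperature ran from 42803 through 49059 to 51755 at RT and from 43977 through 45202 to 48359 at 4°C. The controls overlapped by 1 mouse and the BAT-Mcu-KO mice throughout. The log2 change was -0.32 ± 0.10 in controls (adjusted p = 0.00919) and -0.09 ± 0.09 in BAT-Mcu-KO mice (adjusted p = 0.479), and the difference between these changes, 0.23 ± 0.14, did not pass (adjusted p = 0.852). In controls the call was lost when the other genotype was left out of the fit (adjusted p = 0.0589) and with quantile normalization (0.309), under which the change in BAT-Mcu-KO mice turned to 0.054.

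Counted by mice rather than by the model, 7 of the 10 genes did not overlap between RT and 4°C in controls, 2 higher and 5 lower, against 25.2% of all genes (13.0% higher and 12.3% lower). In BAT-Mcu-KO mice 5 did not, 2 higher and 3 lower, against 24.2% (12.4% and 11.9%). Together, 8 genes were called in both genotypes in the same direction, 2 higher and 6 lower, where 17.3% of all genes were called higher in both and 17.5% lower in both. With 75th percentile scaling the median of all genes by cold in controls moved from -0.02 to -0.13, and 38.2% of the called genes were higher in place of 48.5%. On that scaling the controls still had Plin2 and Abhd5 higher and Lipe, G0s2, Plin5, Cidec, Mgll, Cidea and Pnpla2 lower.

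Loss of Mcu was the second question, and none of the 10 genes was called between the genotypes. The controls lacked Ucp1-Cre, so loss of Mcu cannot be told apart from the presence of that transgene. At RT 0 of 10 passed in limma, 0 at an unadjusted p under 0.05 and 0 in DESeq2 and edgeR, with the smallest adjusted p at 0.965. Over all genes 0.0478% were called, and 5.15% were at that unadjusted p. At 4°C 0 of 10 passed by any of these tools, with the smallest adjusted p at 0.677 and 1 gene at an unadjusted p under 0.05, against 0.0751% of all genes called and 6.98% at that unadjusted p. The change with cold differed between genotypes for 0 of 10 genes by each of the 3 tools, with the smallest adjusted p in limma at 0.852 and 0 genes at an unadjusted p under 0.05. Over all genes 0.0% passed this test in limma, where 5.99% were at that unadjusted p, while edgeR called 0 and DESeq2 28.

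The intervals say what these mice leave possible. At RT the fold of BAT-Mcu-KO over control lay between 0.782 and 1.32 for the 95% intervals of the 9 genes other than G0s2, and at 4°C between 0.696 and 1.34. G0s2 was the exception, with an interval of 0.476 to 1.18 at RT and of 0.424 to 1.10 around 0.683 at 4°C, so that its intervals hold both a large fall and a small rise. Its log2 difference at 4°C, -0.55, was -0.227 without BAT-Mcu-KO replicate 4, the lowest mouse, -0.774 without BAT-Mcu-KO replicate 5, and -0.337 in DESeq2. Plin2 was at 0.897 (0.782 to 1.03) at RT and 0.868 (0.751 to 1.00) at 4°C. The 1 gene with a small unadjusted p was Cidea at 4°C, where the 6 BAT-Mcu-KO mice (43977 to 48359) all lay above the 5 control mice (35906 to 42532). Its log2 difference was 0.22 ± 0.10 (unadjusted p = 0.0337, adjusted p = 0.677), and 0.683% of all genes did not overlap between these groups, 0.389% with the BAT-Mcu-KO mice higher.

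**Figure D4:**
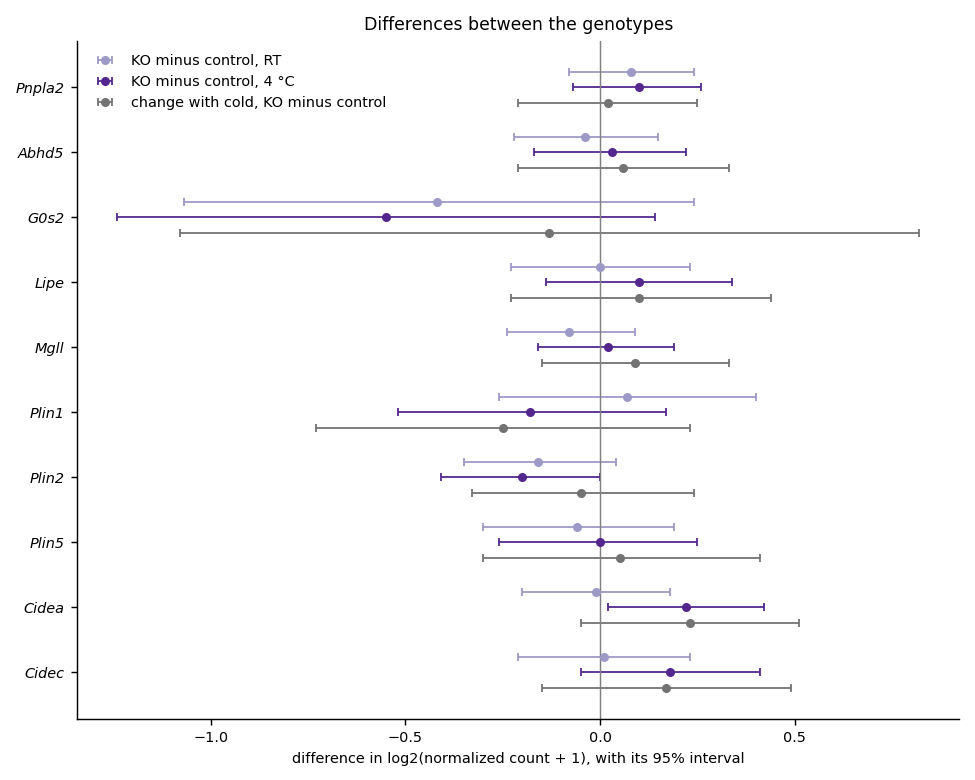
Difference in log2(normalized count + 1) between BAT-Mcu-KO and control mice at RT, the same at 4°C, and the difference between the genotypes in the change with cold (x axis), for each of the 10 genes (y axis), as points with 95% intervals from limma. The intervals of G0s2 are the widest and reach from -1.24 to 0.82, and only that of Cidea at 4°C, 0.02 to 0.42, leaves out 0.

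Other genes of the same pathway were read from 4 short lists, whose counts stand against 46.0% of all genes called by cold in controls and 43.3% in the knockouts. With so few genes a list, nothing particular to a list is read from its count. Of 17 other lipid droplet proteins, cold raised 6 and lowered 3 in controls and raised 7 and lowered 4 in BAT-Mcu-KO mice, with median log2 changes of 0.21 and 0.14. Clstn3, of which an adipose form binds droplets, rose by 1.48 and 1.60 on the log2 scale, and Cav1, the caveolin that also reaches droplets, by 1.15 and 1.08. Ptrf (cavin-1), a partner of caveolin, changed by -0.79 and -0.87, and Tmem159, which works with seipin where droplets form, by -0.91 and -0.75. The adjusted p of these 4 were at most 2.2e-05.

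Of 11 other lipases, cofactors and inhibitors, 2 rose and 6 fell in controls and 3 rose and 6 fell in BAT-Mcu-KO mice. The largest change was that of Pnpla3, the closest relative of Pnpla2, which changed by -4.15 on the log2 scale in controls and -3.42 in BAT-Mcu-KO mice, from medians of 2019 and 2366 normalized counts at RT to 72.0 and 336 at 4°C. The spread at 4°C was wide, with a coefficient of variation of 156% in controls, where replicate 2 stood at 942, and of 83.3% in the knockouts, but all mice lay below the RT mice of their genotype. Daglb, a diacylglycerol lipase, changed by -1.17 and -0.51, the carboxylesterase Ces1f by -0.76 and -0.91, and the phospholipase Pnpla8 by 0.85 and 0.69 (adjusted p at most 0.0385).

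The last 2 lists hold the genes that pass the lipolytic signal on and those that hold it back. Of 9 genes listed with the receptors and kinases that switch lipolysis on, 0 rose and 2 fell in controls. In BAT-Mcu-KO mice 1 rose and 2 fell. Prkaca and Prkar2b, a catalytic and a regulatory subunit of protein kinase A, changed by -0.69 and -0.64 in controls and -0.91 and -0.69 in BAT-Mcu-KO mice (adjusted p at most 0.00046). As a regulatory subunit, Prkar2b does not itself switch lipolysis on, so its fall is not read as less of an activator. All 10 measured genes of the list that restrains lipolysis were called in both genotypes, 5 higher and 5 lower in each. The 5 that rose were Ffar4, Npr3, Insr, Pde3b and Pde4d. Among them the receptor Ffar4 went from a mean of 610 normalized counts at RT to 1145 at 4°C in controls. The 4 with the largest changes are receptors coupled to the inhibitory G protein, or in the case of Ffar2 also to another, and all fell. The lactate receptor Hcar1 changed by -4.68 and -4.42, from 383 to 736 normalized counts at RT to 12.1 to 28.8 at 4°C in controls. Hcar2, the receptor of beta-hydroxybutyrate, changed by -3.57 and -3.30, Ffar2, a receptor of short-chain fatty acids, by -2.90 and -2.59, and the adenosine receptor Adora1 by -2.41 and -2.66. Their adjusted p were at most 6.68e-05, and Ffar2 is low, with at most 48.4 normalized counts in any mouse. By genotype and for the interaction, 0 genes of the 4 lists passed.

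**Figure D5:**
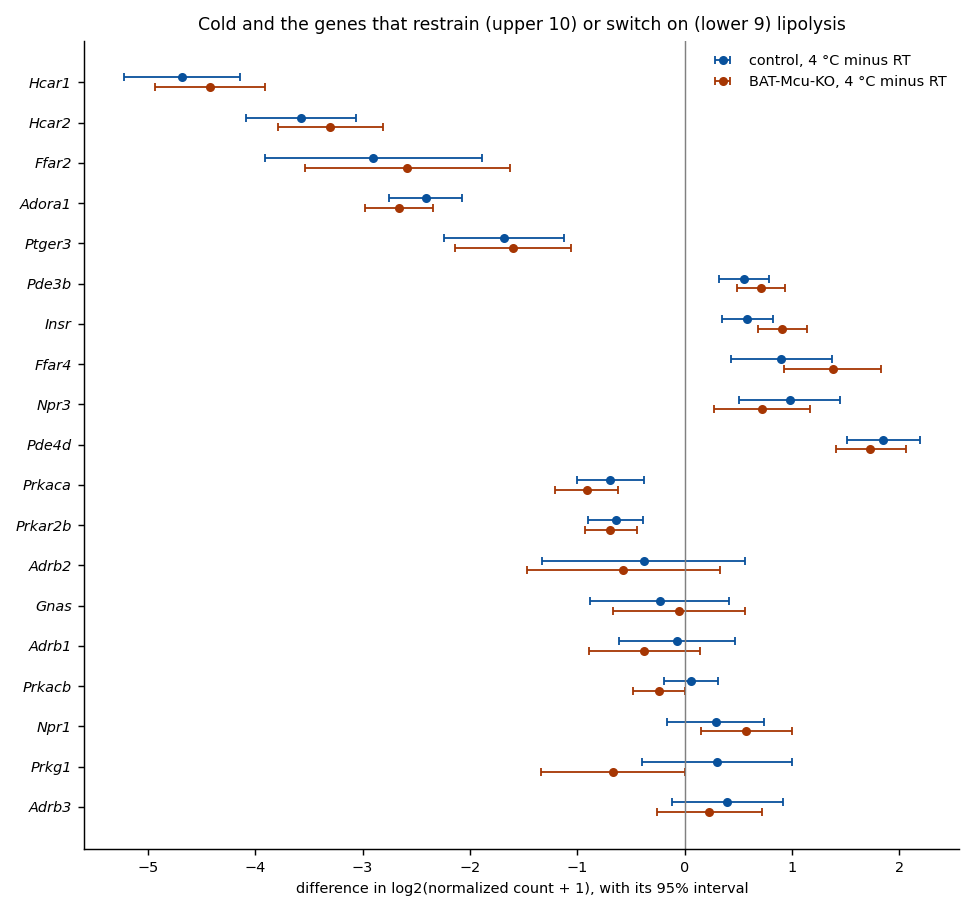
Difference in log2(normalized count + 1) between 4°C and RT (x axis) for 10 genes that restrain lipolysis and 9 listed with those that switch it on (y axis), in control and BAT-Mcu-KO mice, as points with 95% intervals from limma. Of the first 10, 5 lie to the left of 0 and 5 to the right in both genotypes, with Hcar1 farthest out at -4.68 and -4.42, and of the 9 only Prkaca and Prkar2b have intervals that leave out 0 in both genotypes.

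Markers of other cells moved with cold too. Of 10 macrophage markers 4 rose in controls and 6 in BAT-Mcu-KO mice and 0 fell, their summed level running from 956 to 1379 normalized counts at RT and 1208 to 1845 at 4°C in controls. Of 8 endothelial markers 3 rose and 2 fell in controls, and 3 rose and 1 fell in the knockouts. In controls the sum of the 8 was 3767 to 5256 at RT and 6230 to 10531 at 4°C. The means of Pecam1 (1211 at RT and 2335 at 4°C), Kdr (1024 and 2233) and Cldn5 (471 and 1558) were higher in the cold. Those of Tie1 (571 and 352) and Emcn (331 and 247) were lower. Of 7 adipocyte markers 3 rose and 3 fell in controls, and 3 rose and 1 fell in the knockouts. Their sum in controls was 171304 to 216400 at RT and 238641 to 293874 at 4°C, a rise as large as that of Lpl (mean 60204 at RT and 133730 at 4°C), while Adipoq (15438 and 11880) and Cebpa (942 and 152) fell. No gene of any marker list was at 0 in all mice of a group. Mitochondrially encoded genes took 23.1% to 34.5% of the reads in control mice at RT and 28.6% to 38.1% at 4°C, against 31.3% to 34.8% and 32.0% to 34.1% in the knockouts, and these ranges overlapped in both genotypes. The part of the marker shifts in the changes of the lipolysis genes was not tested.

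Within groups, mice that were high in one of these genes could be high in another. Over the 45 pairs, the deviations of 23 mice from their group means were correlated with Pearson's r and a permutation p from 100000 draws within groups, adjusted over the pairs, a comparison added after seeing the data. Pearson's r passed for 3 pairs, all positive, and Spearman's rho for 0. G0s2 and Plin5 had r = 0.761 (permutation p = 0.00189, adjusted p = 0.0283) and rho = 0.730 (p = 0.00474, adjusted p = 0.0711), with r = 0.853 within 4°C, 0.430 within RT and 0.665 without the 2 farthest mice. Lipe and Plin5 had r = 0.715 (permutation p = 0.00141, adjusted p = 0.0283) and rho = 0.575 (p = 0.0175, adjusted p = 0.131), with r = 0.887 within 4°C, 0.0335 within RT and 0.527 without the 2 farthest mice. Whether it differs between the temperatures was not tested. Mgll and Cidea had r = 0.558 (permutation p = 0.00145, adjusted p = 0.0283) and rho = 0.545 (p = 0.00803, adjusted p = 0.0903), with r = 0.411 within 4°C, 0.700 within RT and 0.651 without the 2 farthest mice. The genes of a pair share a library and its scaling factor.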

How the data were processed

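RNA of BAT was made into libraries with a protocol based on Smart-seq2. Per the methods and the labels, the authors aligned paired reads to mm10 with STAR 2.4.0j, counted them within exons with HTSeq without strand and divided them by DESeq2 size factors. The deposited signal is this table of normalized counts for 14651 genes, each of which had at least 8 reads in at least 6 samples. A second table holds fold changes, log2 fold changes and p-values from the authors' own comparisons and was not used.

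The test was limma 3.58.1 (R 4.3.3) on log2(normalized count + 1), with 4 group means over all 23 mice, a variance trend and Benjamini-Hochberg adjustment over 14651 genes. Fold changes are on this scale and understate those of low genes. Values were whole multiples of 1 read in 100.0% of cases (tolerance 0.01 reads), and the recovered reads, 7129271 to 21006347 per mouse, entered DESeq2 1.42.0 and edgeR 4.0.16 as alternatives. Read numbers give counting error only. All per-sample columns were mapped to a mouse, with 0 unused. The labels do not state litters or days. Gene positions and exon lengths came from GENCODE M21 (GRCm38), and lengths were found for 93.9% of genes. Promoter sequences are those of RefSeq. Fits were tested on simulated data. Alternatives were other pseudocounts, a filter on low values, other scalings, no variance trend, fewer groups in the fit, a replicate block, the count tests and each mouse left out, and, chosen after seeing the data, the muscle covariate and the correlations. No pair of mice of a group was alike within sampling noise (chi-square per degree of freedom 8.59 to 61.8).

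The genes, pathway lists, motifs and markers were chosen with earlier results of these data known. All 10 genes are named in each comparison. From each of the 4 pathway lists, up to 4 genes called in both cold comparisons in the same direction were named, those with the largest mean change. The genes that rose in the list that restrains lipolysis were named as well. Of the lists, Hsd17b13, Adra2a, Hoxc9 and Hoxc10 are not analysed here. The white adipocyte markers, of which 4 were measured, gave 1 higher and 1 lower in controls and 1 higher and 3 lower in BAT-Mcu-KO mice by cold.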

Additional observations from a re-analysis of the deposited data

Results flagged for a closer look

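In 3 of the 40 combinations of a gene and a group, 1 mouse lay far from the others of its group by Dixon's ratio of the gap to the range, where chance gives about 2.0. Plin2 was at 8746 normalized counts in BAT-Mcu-KO replicate 2 at RT, with a gap of 0.877 of the range of the group. Plin1 was at 4154 in BAT-Mcu-KO replicate 1 at RT, with a gap of 0.641. Cidec was at 17918 in control replicate 6 at RT, with a gap of 0.744. Without these mice the log2 changes by cold kept their direction and their side of the threshold for Plin2 and Plin1 in BAT-Mcu-KO mice and for Cidec in controls.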

How the results depend on the processing

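Of the log2 changes by cold of the 10 genes, 326 of 340 alternative values in controls and 328 of 340 in BAT-Mcu-KO mice kept their direction and their side of the threshold, 14 and 11 lost the call, and 0 and 1 turned. The number of the 10 called was 7 (quantile normalization) to 10 in controls and 7 to 8 in knockouts over the other settings, and 8 to 10 and 6 to 8 with 1 mouse left out. None was called by genotype or for the interaction in any alternative run. Where values changed, the cause was not tested. Of the 4 within-mouse ratios, 0 of 108 alternative means moved by more than the SD between mice. This count cannot show how firm the ratios are. Leaving 1 mouse out cannot shift a group mean that far, and a pseudocount of 1 is small against these counts. With 1 mouse left out, the widest range was that of G0s2 to Pnpla2 in BAT-Mcu-KO mice at 4°C, -4.587 to -4.042 around -4.353.

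Over all genes, the number called by genotype at RT was 7, and 3 with only the compared groups and 20 in DESeq2. At 4°C it was 11, and 7 with no variance trend, 2 with only the compared groups, 23 in DESeq2, 6 in edgeR and from 3 (without control replicate 2) to 16 with 1 mouse at a time left out. For the interaction it was 0, 28 in DESeq2 and from 0 to 1 (without control 4°C replicate 1) with 1 mouse left out.

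Values that turned were small. With quantile normalization they were 0.054 for Cidea by cold in BAT-Mcu-KO mice, 0.010 for Lipe and 0.009 for Cidea by genotype at RT, -0.022 for Mgll at 4°C and -0.033 for Pnpla2 in the interaction. With 75th percentile scaling they were -0.017 for Cidec by genotype at RT, 0.024 for Plin5 at 4°C and 0.010 for Plin2 in the interaction. DESeq2 and edgeR gave 0.005 and 0.004 for Plin5 by genotype at 4°C and 0.095 each for G0s2 in the interaction. With the muscle level as a covariate, added after seeing the data, they were 0.013 for Lipe and 0.011 for Cidea at RT and 0.005 for Plin5 at 4°C.

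With 1 mouse left out, the differences by genotype at RT ran from -0.039 to 0.023 for Lipe, -0.105 to 0.001 for Abhd5, -0.038 to 0.153 for Plin1, -0.096 to 0.001 for Plin5, -0.053 to 0.070 for Cidea and -0.033 to 0.1 for Cidec. At 4°C they ran from -0.005 to 0.199 for Lipe, -0.030 to 0.060 for Mgll, -0.024 to 0.077 for Abhd5 and -0.089 to 0.073 for Plin5. In the interaction they ran from -0.018 to 0.068 for Pnpla2, 0.000 to 0.204 for Lipe, -0.358 to 0.188 for G0s2, -0.114 to 0.025 for Plin2 and -0.031 to 0.131 for Plin5.

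The groups share replicate numbers. Of 33 correlations between the deviations of same-numbered mice, which ran from -0.386 to 0.264, 4 were above 0.1. Between the 2 genotypes at 4°C they ran from 0.0416 to 0.218, and between the temperatures in BAT-Mcu-KO mice from -0.204 to -0.0249. Mice with different numbers were not compared, so these values cannot tell whether the numbers mark pairs. With the replicate number as a block, 10 and 8 of the 10 genes were called by cold in controls and BAT-Mcu-KO mice and 0 by genotype at RT, 0 at 4°C and 0 for the interaction, and over all genes 6610, 6376, 7, 7 and 0. It changed no call of the 10 genes. The spread between 5 or 6 mice a group sets the width of the intervals.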
